A study of Mus musculus with 12 samples.

Results

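The spleens of mice given AC H6, an antibody that activates LTbR (the lymphotoxin beta receptor), were compared with those of mice given an isotype antibody, a control antibody without that target. The comparison was chosen by label: of the 12 libraries of the study, the 6 with the tissue label spleen were taken, 3 with the treatment AC H6 and 3 with the treatment isotype. The other 6 libraries, from duodenum, entered a single test of whether a change differed between the tissues. All mice were of the inbred laboratory strain C57BL/6J and 2 months old, and the design text names them wild type, so neither group carried a deletion or a transgene. Every animal received 100 ul at 1 mg/ml, and the readout was taken after 24 hours, at 1 dose and 1 time. The design text states the dose per mouse and n = 3. No label states that each library is a separate mouse, so the p-values measure the spread between these libraries, part of which may be technical. All genes were taken: 23329 rows were read, and 15270 of them passed a filter on low counts and were tested.

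LTbR belongs to the TNF receptor family and sits on stromal cells, endothelium and myeloid cells. Its ligands, lymphotoxin and LIGHT, come mainly from lymphocytes, and its signal passes through NIK and IKK alpha to the NF-kB subunits RelB and p52. In the spleen it is known for upholding the white pulp, where stromal chemokines place B and T cells, and the marginal zone, where scavenging macrophages meet the blood. The red pulp around them filters blood and recycles the iron of old red cells. In mice it also makes red cells, platelets and granulocytes.

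Total counts ran from 13874091 to 45847467 a library, and values below are CPM, each count set against its library's total after TMM scaling, which corrects for differing composition. Of the 8 spleen markers, Cd79a, Ms4a1, Cd3e, Spic, Tlx1, Cxcl13, Hbb-b1 and Cd5l, all were present in every library; among them Tlx1, the transcription factor of splenic stroma, lay between 23.4 and 34.1 CPM. The extraction protocol in the labels speaks of brain. Of the brain markers, Snap25 and Slc17a7 did not pass the filter, while Mbp lay between 66.9 and 75.2 CPM. RNA of neighbouring organs was seen in single libraries: the 10 pancreatic acinar markers summed to 695 CPM in isotype library 2 and to 170 CPM in AC H6 library 2, against 32.2 to 41.8 CPM in the other 4. Liver transcripts stood out in AC H6 library 3, where albumin (Alb) reached 55.5 CPM against 0.656 CPM or less elsewhere, in a list of 8 hepatocyte genes made after values had been seen that summed to 141 CPM there and to 2.05 CPM or less in the other libraries.

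Haemoglobin took an unequal share of the libraries. Its rows held 12.1%, 19.0% and 7.59% of the counts in isotype libraries 1, 2 and 3 and 28.3%, 15.7% and 22.5% in AC H6 libraries 1, 2 and 3. The means were 12.9% ± 5.73 (SD, n = 3) and 22.2% ± 6.29 (SD, n = 3), and the groups overlapped, since AC H6 library 2 held less than isotype library 2 (exact two-sided permutation p = 0.2, where 3 against 3 cannot go below 0.1). Reads that match several genes were counted in each row, so the alpha chain rows and the beta chain rows repeat one another. With 1 row per chain the means were 6.38% ± 3.03 and 11.5% ± 3.71 (SD, n = 3 each). The first principal component of all tested genes (54.3% of the variance) ordered the libraries in nearly the same way, with isotype library 3 at one end and AC H6 library 1 at the other. It also set the treatments apart: the isotype libraries lay between -38.0 and -8.47 and the AC H6 libraries between 1.96 and 33.4. Haemoglobin and treatment cannot be told apart on it. Each result was therefore also fitted with the log2 haemoglobin share of the library as a covariate, called the haemoglobin term below. That fit leaves 3 residual degrees of freedom in place of 4, and as the share is higher in 2 of the 3 AC H6 libraries than in any isotype library, the term and the treatment are partly confounded.

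At a Benjamini-Hochberg adjusted p under 0.05 in edgeR's quasi-likelihood test, 608 of 15270 genes differed (3.98%): 315 were higher under AC H6 (2.06%) and 293 lower (1.92%). In bulk tissue, more or fewer cells of a type and more or less RNA per cell cannot be told apart, here and in all that follows. All 608 had complete separation of the groups, a pattern shared by 32.5% of all tested genes. The median log2 change over all tested genes was -0.00 and 49.8% were positive. Changes were mostly small, with a median size of 0.49 on the log2 scale among the called genes, and 64 rises and 26 falls exceeded 2-fold. With the haemoglobin term 97 genes were called (0.635%), 73 higher and 24 lower, and 89 of these were among the 608. Single libraries moved the count widely. It was 14 without isotype library 1, 68 without isotype 2, 104 without isotype 3, 76 without AC H6 library 1, 1132 without AC H6 2 and 30 without AC H6 3. In every one of those 6 fits 10 genes were called. They were Hdc, C5ar1, Mmp8, Hk3, Itgam, Csf3r, Hp and F630028O10Rik, which were higher, and Gal3st2 and Myh8, which were lower.

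**Figure D1:**
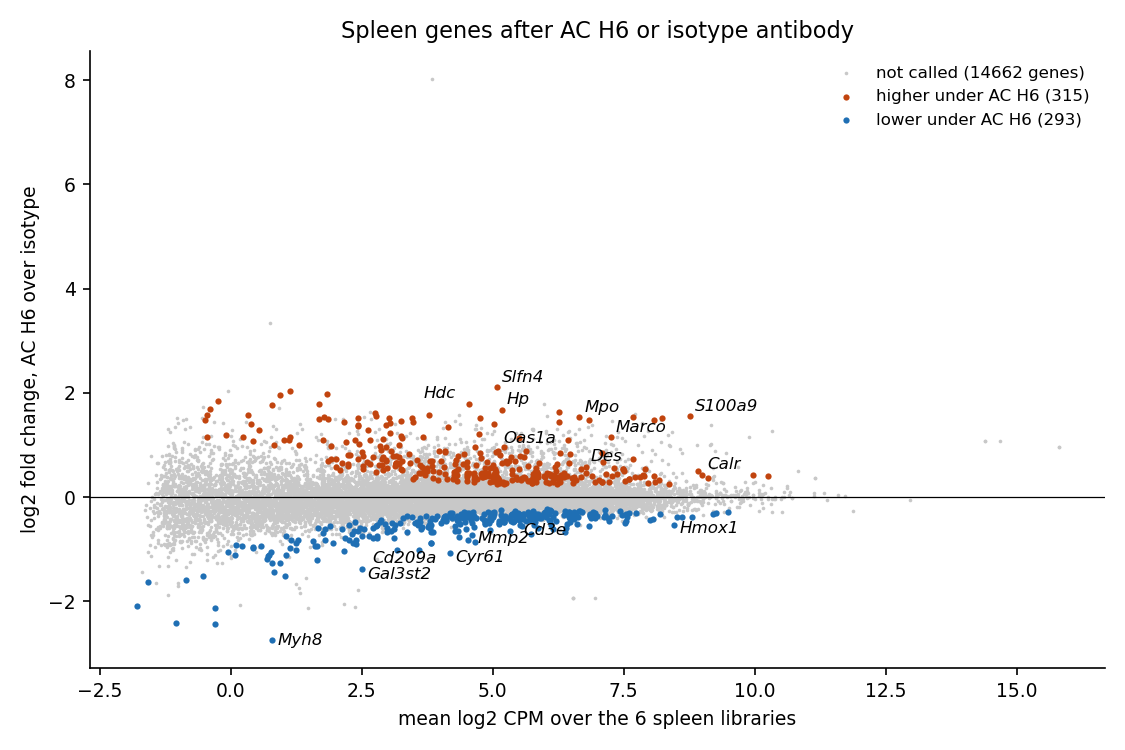
Log2 fold change of AC H6 over isotype (vertical axis) against mean log2 CPM (horizontal axis) for the 15270 genes tested in spleen. Red points are the 315 genes called higher, blue points the 293 called lower and grey points the rest; most called genes lie within 2-fold of no change, and the named rises reach 2.12 (Slfn4).

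Neutrophil genes were among the largest rises. Neutrophils are short-lived phagocytes that carry their antimicrobial proteins in granules made in sequence during development: azurophil granules in promyelocytes, then specific and gelatinase granules, and last the receptors and cytosolic proteins of the mature cell. Of 7 azurophil granule genes tested 6 rose, with a median log2 change of 1.52. Among the specific and gelatinase granule genes 11 of 12 rose (median 1.42), and among genes of the mature cell 14 of 17 (median 1.09), where 2.06% of all tested genes did. No gene of the 3 lists was called lower. With the haemoglobin term the medians were 0.97, 1.03 and 1.03, and 5, 7 and 8 genes were called. AC H6 library 2, which held less haemoglobin than isotype library 2, was above that library in 7 of 7, 12 of 12 and 16 of 17 genes, against 49.6% of all tested genes. All AC H6 libraries lay above all isotype libraries in 7, 11 and 15 of these genes, against 15.9% of all tested genes. The order of the libraries numbered 2 therefore largely repeats the values behind the calls and is no separate support. Fewer genes passed when single libraries were left out: 0 azurophil genes without isotype library 1, 2 specific and gelatinase genes without AC H6 library 3 or isotype library 2, and 3 mature genes without isotype library 1. The medians of the 3 lists stayed between 1.07 and 1.76. Summed CPM of each list was lowest in isotype library 3 and, among the AC H6 libraries, in library 2. Those libraries held the least haemoglobin of their groups. The azurophil list summed to 273, 292 and 248 CPM in isotype libraries 1 to 3, in the order of haemoglobin. In AC H6 libraries 1 to 3 it summed to 488, 433 and 504 CPM. In the other lists isotype library 1 exceeded isotype library 2.

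The azurophil granule holds serine proteases and myeloperoxidase. Mpo, the haem enzyme that makes hypochlorous acid, measured 54.98, 67.1 and 31.3 CPM in isotype libraries 1 to 3 and 161, 119 and 168 CPM in AC H6 libraries 1 to 3. The lowest AC H6 library lay well above the highest isotype library, and the log2 change was 1.54 ± 0.27 (edgeR adjusted p = 0.0307). Elane, neutrophil elastase, measured 13.5, 18.6 and 9.47 CPM under isotype and 42.7, 30.4 and 47.4 CPM under AC H6, and its neighbour on the chromosome Prtn3, proteinase 3, 10.1, 14.6 and 5.98 CPM and 40.2, 27.1 and 40.2 CPM. Both proteases were lowest in isotype library 3, which also held the least haemoglobin, and their log2 changes were 1.52 ± 0.25 and 1.78 ± 0.30 without the haemoglobin term and 0.97 ± 0.14 and 1.14 ± 0.12 with it. Ms4a3, a membrane protein of granulocyte progenitors, was also lowest in isotype library 3, with 3.70, 3.36 and 2.69 CPM under isotype and 9.68, 8.05 and 12.1 CPM under AC H6 (log2 1.61 ± 0.18, adjusted p = 0.0117). Ctsc, the peptidase that activates these proteases and is also made by many other cells, did not pass the test at 0.20 ± 0.07 (adjusted p = 0.12).

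Specific granules hold metal-binding and matrix-degrading proteins. Ltf, lactoferrin, measured 124, 120.0 and 71.6 CPM under isotype and 304, 248 and 362 CPM under AC H6. Ngp, a cathelin-like granule protein, was the most abundant of the list at 166, 167 and 95.1 CPM and 379.8, 318 and 499 CPM. Isotype library 3 was lowest and AC H6 library 3 highest for both, the groups did not overlap, and the log2 changes were 1.54 ± 0.22 (adjusted p = 0.0224) and 1.48 ± 0.24 (adjusted p = 0.0287). Mmp8, the collagenase of neutrophils (chromosome 9, 7558456 to 7568485, plus strand), varied less, with 8.05, 8.16 and 7.17 CPM against 15.9 to 18.3 CPM under AC H6. Its log2 change of 1.16 ± 0.09 (adjusted p = 0.00822) was called in each of the 6 fits with a library left out. Hp, haptoglobin, which binds free haemoglobin and is stored in these granules as well as secreted by liver, measured 19.4, 18.1 and 13.7 CPM and 56.5, 45.7 and 61.4 CPM. Its rise of 1.68 ± 0.15 was 1.59 ± 0.16 without AC H6 library 3, the one with liver transcripts (adjusted p = 0.0456). Padi4, the enzyme that converts histone arginine to citrulline, rose by 0.96 ± 0.11, and Cd177, a surface protein of neutrophils, by 1.40 ± 0.18.

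**Figure D2:**
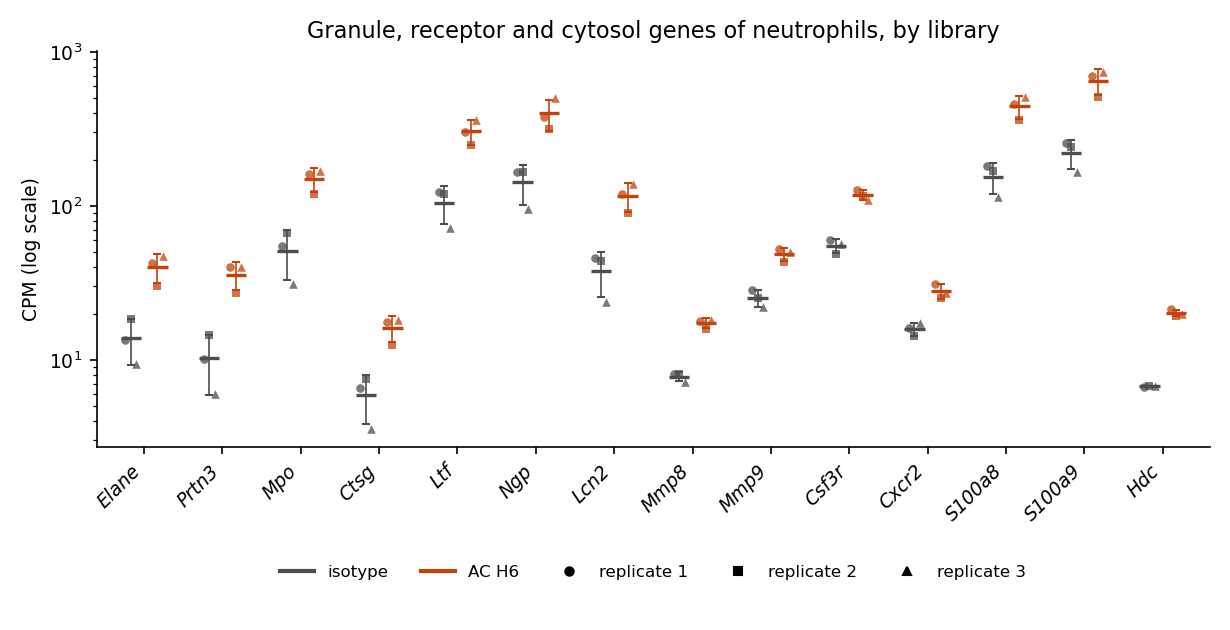
CPM on a log scale of 14 genes in each spleen library: neutrophil genes and Hdc, whose cell source cannot be told apart here. Symbols mark the replicate, horizontal bars the group mean and error bars the SD (n = 3 libraries). All 3 AC H6 libraries lie above all 3 isotype libraries for each gene, and the isotype libraries of Hdc lie between 6.67 and 6.81 CPM.

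Receptors mark the mature neutrophil. Csf3r, through which the cytokine G-CSF acts (chromosome 4, 126024550 to 126044440, plus strand), measured 60.3, 48.9 and 56.8 CPM under isotype and 127, 116 and 109.7 CPM under AC H6. Here the order within groups did not follow haemoglobin: isotype library 3 was not the lowest, and the log2 change was 1.09 ± 0.09 without and 1.15 ± 0.13 with the haemoglobin term. C5ar1, the receptor for complement C5a, went from 4.29, 4.27 and 4.08 CPM to 11.6, 10.6 and 10.8 CPM (log2 1.38 ± 0.09, adjusted p = 0.00402). The chemokine receptor Cxcr2 measured 16.04, 14.2 and 17.3 CPM and 31.2, 25.1 and 27.3 CPM, a rise of 0.82 ± 0.11. S100a8 and S100a9, which pair to form calprotectin, were the most abundant of the list, and S100a9 measured 255, 241 and 167 CPM and 701, 508 and 746 CPM (log2 1.56 ± 0.19, adjusted p = 0.0157). Its AC H6 libraries spread more widely than those of Csf3r but stayed above 255 CPM, the highest isotype value. The formyl peptide receptor genes Fpr1 and Fpr2, glycogen phosphorylase Pygl and the peptidoglycan-binding Pglyrp1, all chosen after their values were seen, rose by 0.83 ± 0.14, 1.18 ± 0.17, 0.77 ± 0.07 and 0.85 ± 0.08; with the haemoglobin term Pygl and Pglyrp1 were called and Fpr1 and Fpr2 were not. Subunits of the NADPH oxidase, which macrophages and B cells share, were called in 0 of 7 cases (3 at an unadjusted p under 0.05, DESeq2 0); Cybb lay at 0.17 ± 0.08 and Rac2 at -0.15 ± 0.05.

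Hdc, histidine decarboxylase, which makes histamine, had the smallest p of all genes. It measured 6.67, 6.75 and 6.81 CPM in the isotype libraries and 21.4, 19.4 and 19.9 CPM in the AC H6 libraries. The 3 values of a group were almost equal, whatever their haemoglobin, and the log2 change was 1.58 ± 0.07 (adjusted p = 8.13e-04). Of the list for basophils, mast cells and eosinophils the basophil protease Mcpt8 also rose (1.505 ± 0.27), the interleukin 5 receptor Il5ra fell (-0.76 ± 0.16), and Cpa3, Ms4a2 and Epx, a mast cell protease, an Fc receptor chain and eosinophil peroxidase, lay at 0.18 ± 0.17, 0.09 ± 0.42 and 0.39 ± 0.28 without passing the test. Granulocyte progenitors and neutrophils are known to make Hdc too, and which cells held it cannot be told apart here.

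Transcription factors and growth factor receptors direct the growth of granulocytes from progenitors. Cebpe, the factor needed for specific granules, measured 3.37, 4.71 and 2.22 CPM and 8.27, 7.18 and 10.3 CPM and rose by 1.29 ± 0.26 (adjusted p = 0.0438). It and Csf1r were the 2 called of 14 myeloid transcription factors and growth factor receptors. Cebpb (1.14 ± 0.26, adjusted p = 0.0563), the factor of emergency granulocyte production, and Sfpi1 (0.21 ± 0.07), which encodes PU.1, did not pass. Of 9 progenitor genes only Cd34 was called, at 0.43 ± 0.09; the stem cell factor receptor Kit lay at 0.05 ± 0.05 and Flt3, a receptor of lymphoid and dendritic progenitors, at -0.40 ± 0.09 (adjusted p = 0.0517). The cytokines that drive granulocyte output were scarce: Csf3, Csf2, Il6, Il17a, Il23a and Cxcl2 had too few counts to be tested. The chemokines Cxcl1 and Cxcl5 lay at 0.37 ± 0.24 and 0.39 ± 0.21, and Cxcl12, which retains neutrophils in marrow, at -0.24 ± 0.10 with 482, 526 and 506 CPM under isotype and 389, 394 and 504 CPM under AC H6; none of the 5 tested passed (DESeq2 0, unadjusted p under 0.05 in 0).

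The locus of miR-223, a microRNA of granulocytes and monocytes, was among the rises. The precursor row Mir223 (chromosome X, 96242817 to 96242926, plus strand) measured 1.45, 0.992 and 1.27 CPM under isotype and 2.54, 2.71 and 2.47 CPM under AC H6, and the host transcript F630028O10Rik, a long noncoding RNA that overlaps it (chromosome X, 96239926 to 96243636, plus strand), 24.1, 23.5 and 23.6 CPM and 43.8, 39.98 and 45.2 CPM. Within each group the host values differed by little, and it rose by 0.86 ± 0.06 (adjusted p = 0.00701), the precursor row by 1.10 ± 0.17 (adjusted p = 0.0251). These rows count the locus transcript, not the mature microRNA, whose main strand is shown from RefSeq (GRCm38.p6, chromosome X, 96242884 to 96242905, plus strand) with the seed, bases 2 to 8, in capitals.
mmu-miR-223-3p: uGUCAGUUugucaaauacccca

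Promoters of called granule genes were read for TTGCNNAA, part of the site of C/EBP factors such as that of Cebpe. The windows run from 250 bases before to 50 bases after the start in RefSeq (GRCm38.p6), and both strands were searched. Among genes with a window the motif stood in 12.2% of 27025, in 2 of 8 azurophil genes and in 5 of 11 specific and gelatinase genes. Mmp8 and Ngp are shown because both rose and hold a match, in capitals. A match is a description of the letters and not evidence of binding.
Mmp8, chr9:7558179-7558478, plus strand: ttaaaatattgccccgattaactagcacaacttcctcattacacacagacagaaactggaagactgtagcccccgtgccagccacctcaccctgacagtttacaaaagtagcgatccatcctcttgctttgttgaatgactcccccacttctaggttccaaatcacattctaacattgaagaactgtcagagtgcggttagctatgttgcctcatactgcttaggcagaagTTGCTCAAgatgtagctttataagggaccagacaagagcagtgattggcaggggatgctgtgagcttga
Ngp, chr9:110419558-110419857, plus strand: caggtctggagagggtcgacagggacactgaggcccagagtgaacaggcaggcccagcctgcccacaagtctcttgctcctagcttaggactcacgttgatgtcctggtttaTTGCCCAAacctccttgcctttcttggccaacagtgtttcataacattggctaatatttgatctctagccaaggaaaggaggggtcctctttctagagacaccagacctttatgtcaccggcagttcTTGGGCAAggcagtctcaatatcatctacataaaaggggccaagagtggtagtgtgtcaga

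Receptors by which myeloid cells sense damage and microbes rose in part. Of 10 C-type lectins 5 rose, against 2.06% of all tested genes, and with the haemoglobin term Clec4a2 alone was called. Clec4d and Clec4e, which detect mycobacterial glycolipids, rose by 1.38 ± 0.18 and 0.99 ± 0.20. Clec4n, Dectin-2, which binds fungal mannan, measured 47.6, 47.3 and 48.5 CPM and 70.4, 61.9 and 67.2 CPM (0.48 ± 0.06, adjusted p = 0.0164). Among 13 Toll-like and NOD receptors the endosomal RNA sensors Tlr8 and Tlr13 rose by 0.62 ± 0.10 and 0.52 ± 0.09. Tlr1 and Tlr9 lay at -0.30 ± 0.09 and -0.27 ± 0.10 and did not pass. In the interleukin 1 family 5 of 16 genes rose and 1 fell. With the haemoglobin term 0 of the 16 were called higher and 1 lower, and between 0 and 4 were called when a library was left out. Il1f9, interleukin 36 gamma, went from 1.65, 0.937 and 1.66 CPM to 6.66, 4.42 and 5.13 CPM, Il1b from 20.1, 15.5 and 19.5 CPM to 30.5, 26.3 and 24.7 CPM, and the decoy receptor Il1r2, counted among the mature neutrophil genes, from 2.18, 1.82 and 1.54 CPM to 5.38, 4.73 and 5.32 CPM. The groups stayed apart in each, with log2 changes of 1.99 ± 0.26, 0.58 ± 0.12 and 1.495 ± 0.15. Il18r1, the interleukin 18 receptor of T and NK cells, was the fall (29.8, 30.4 and 37.8 CPM against 16.7, 19.8 and 17.6 CPM, -0.86 ± 0.11).

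Some genes of lipid mediator synthesis differed, in both directions. Alox5, 5-lipoxygenase, which starts leukotriene synthesis, measured 6.07, 6.06 and 6.14 CPM and 12.8, 11.01 and 12.7 CPM (log2 0.99 ± 0.09). Its partner protein Alox5ap, the leukotriene A4 hydrolase Lta4h and the leukotriene B4 receptor Ltb4r1, named after their values were seen, lay at 0.38 ± 0.06, 0.28 ± 0.05 and 1.09 ± 0.23, and cyclooxygenase 1, Ptgs1, at 0.44 ± 0.06; each was called. Pla2g2d, a secreted phospholipase also chosen after its values were seen, fell from 98.9, 96.2 and 112 CPM to 64.3, 66.3 and 61.5 CPM (log2 -0.68 ± 0.07). Alox5 and Pla2g2d were still called with the haemoglobin term and the other 4 were not. Enzymes of the pentose phosphate pathway, which supplies NADPH, were likewise picked after their values were seen. G6pdx, its first enzyme, measured 59.2, 59.5 and 54.8 CPM and 81.2, 73.9 and 81.1 CPM, and Pgd, Taldo1 and Tkt rose by 0.39 ± 0.06, 0.43 ± 0.08 and 0.40 ± 0.08 beside 0.44 ± 0.06 for G6pdx. None of the 4 was called with the haemoglobin term, where the values were 0.35 ± 0.08 for G6pdx, 0.34 ± 0.09 for Pgd, 0.27 ± 0.08 for Taldo1 and 0.25 ± 0.07 for Tkt. Glutathione reductase, Gsr, which uses that NADPH, rose by 0.64 ± 0.07 (adjusted p = 0.00975), and Hk3, a hexokinase of myeloid cells, by 0.69 ± 0.06. The list of glycolysis and hypoxia genes had no rise among 15. Its one call was Pdk1, the kinase that holds back pyruvate oxidation, at -0.25 ± 0.05, while Gapdh and Pgk1 lay at 0.27 ± 0.07 and 0.24 ± 0.05 (adjusted p = 0.0703 and 0.0505).

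Monocytes and macrophages of the marginal zone and red pulp held genes that rose. Of 11 macrophage genes 6 rose, against 2.06% of all tested genes, with a median of 0.33 that was 0.34 with the haemoglobin term. With that term 1 of the 11 was called, and between 0 and 5 were called when a library was left out. Marco, a scavenger receptor of marginal zone macrophages, measured 95.4, 92.96 and 95.4 CPM in the isotype libraries, a narrow range, and 229, 170.2 and 228 CPM under AC H6. Cd209b, SIGN-R1, went from 10.8, 10.2 and 8.52 CPM to 23.2, 18.7 and 33.6 CPM. Both were lowest in AC H6 library 2 among the treated, and rose by 1.15 ± 0.12 (adjusted p = 0.00935) and 1.35 ± 0.21 (adjusted p = 0.0251). Spic, the factor that specifies red pulp macrophages, did not pass at 0.15 ± 0.06. C1qa, C1qb and C1qc, the chains of complement C1q by which dying cells are bound, were the 3 called of 12 clearance genes, and C1qb measured 143, 162 and 132 CPM and 212, 212 and 214 CPM. The complement component C3, also made by liver, was one of the 8 genes with the largest gain in CPM, from 801, 904 and 871 CPM to 1114, 1114 and 1238 CPM, a log2 change of 0.43 ± 0.07 that was 0.38 ± 0.07 without AC H6 library 3 (adjusted p = 0.107). The monocyte genes Vcan, F13a1 and Ly6c2, chosen after their values were seen, measured 2.44, 3.06 and 2.46 CPM, 18.7, 16.4 and 12.8 CPM and 67.2, 72.3 and 68.9 CPM under isotype. Under AC H6 they stood at 7.90, 8.90 and 6.22 CPM, 35.03, 38.1 and 37.5 CPM and 93.2, 93.9 and 99.2 CPM, with log2 changes of 1.52 ± 0.17, 1.22 ± 0.13 and 0.46 ± 0.06. Vcan and F13a1 were called with the haemoglobin term and Ly6c2 was not.

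Iron and lipid handling changed at single genes. Hmox1, haem oxygenase 1, which opens the haem ring in red pulp macrophages, fell from 422, 428 and 399 CPM to 309, 267 and 289 CPM (log2 -0.53 ± 0.07, and -0.64 ± 0.07 with the haemoglobin term, adjusted p = 0.0149). Every AC H6 library lay below every isotype library. Cybrd1, an iron reductase, fell (log2 -0.66 ± 0.10), and Trf, transferrin, rose by 0.41 ± 0.08 (0.34 ± 0.07 without AC H6 library 3, adjusted p = 0.111). The ferritin heavy chain Fth1 lay at 0.28 ± 0.10 and did not pass. Dgat2, which makes triglyceride, measured 6.60, 6.67 and 6.10 CPM and 11.1, 10.97 and 11.5 CPM (0.79 ± 0.08), and Nr1h3, the oxysterol receptor LXR alpha, 54.1, 52.6 and 57.5 CPM and 77.7, 76.7 and 72.1 CPM (0.46 ± 0.06). Mylip, which marks the LDL receptor for degradation, fell (log2 -0.27 ± 0.05), and none of 17 cholesterol synthesis genes was called (2 at an unadjusted p under 0.05, DESeq2 0). The cysteine protease Ctsb was the one call of 17 lysosome genes, at 1015, 1148 and 983 CPM and 1462, 1292 and 1409 CPM.

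Chaperones of the endoplasmic reticulum rose by a small amount with little spread. Hspa5, BiP, the main chaperone of secreted proteins, measured 384, 418 and 403 CPM and 586, 587 and 532 CPM. Calr, calreticulin, measured 419, 441 and 445 CPM and 583, 606 and 571 CPM. The groups were well apart in both, and the log2 changes of 0.50 ± 0.06 and 0.43 ± 0.05 were 0.48 ± 0.08 and 0.46 ± 0.07 with the haemoglobin term (adjusted p = 0.0378 and 0.0277). Manf and Sdf2l1, which assist BiP, rose as well, so that 4 of 16 secretory pathway genes rose, against 2.06% of all tested genes. Canx, Pdia3, Pdia6 and P4hb, a calnexin and 3 disulphide isomerases, were picked after their values were seen and rose by 0.33 ± 0.06, 0.25 ± 0.05, 0.41 ± 0.06 and 0.27 ± 0.05, none of them called with the haemoglobin term. The plasma cell factors Xbp1 and Irf4 lay at 0.33 ± 0.10 and -0.31 ± 0.10 and did not pass. In the heat shock list of cytosolic chaperones 0 of 10 were called (6 at an unadjusted p under 0.05, DESeq2 4), with Hspa8 at 1273, 1389 and 1850.0 CPM and 2202, 2244 and 1956 CPM.

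Several interferon-induced genes were higher. Cells answer type I interferon through STAT factors, which with IRF9 bind the interferon-stimulated response element. Of 22 effectors 7 rose, against 2.06% of all tested genes. The median of the 22 was 0.64, and 0.34 with the haemoglobin term, where Oas1a alone was called. Oas1a, which makes the adenylate chains that activate RNase L, measured 23.1, 26.6 and 22.2 CPM and 42.5, 41.4 and 50.3 CPM. Ifitm3, which blocks entry of viruses through membranes, measured 102, 111 and 104 CPM and 172, 146 and 188 CPM. The isotype libraries were close together in both and none reached the AC H6 range, with log2 changes of 0.89 ± 0.10 (adjusted p = 0.0113) and 0.67 ± 0.10 (adjusted p = 0.022). Oasl2, Ifit1, Oas2 and Ifi44 were also called, at 0.79 ± 0.12, 0.71 ± 0.13, 0.77 ± 0.16 and 0.88 ± 0.19. The summed effectors came to 731, 928 and 626 CPM in isotype libraries 1 to 3 and 1474, 1049 and 1493 CPM in AC H6 libraries 1 to 3. They followed the haemoglobin order within the isotype group. The AC H6 library with the least haemoglobin, library 2, had the lowest sum of its group, as it had for the neutrophil lists. Between 0 (without isotype library 1) and 11 (without AC H6 library 2) of the effectors were called when a library was left out.

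Among 9 sensors and factors Ifih1, the RNA sensor MDA5, was the single call at 0.45 ± 0.10 (adjusted p = 0.0493). Irf7, which amplifies the response, lay at 0.70 ± 0.17 with 80.8, 109 and 72.4 CPM under isotype and 142, 121 and 163 CPM under AC H6 (adjusted p = 0.0607). Stat2, a partner of IRF9, lay at -0.03 ± 0.07, with overlapping groups. Of the 7 Schlafen genes tested Slfn4, an interferon-induced gene of myeloid cells, was called alone: it had the largest rise among the called genes described here, from 13.7, 12.8 and 11.2 CPM to 67.04, 39.1 and 57.7 CPM (log2 2.12 ± 0.20, adjusted p = 0.00822), and can share reads with its paralogs. Slfn5, Slfn8 and Slfn2 lay at 0.20 ± 0.11, -0.12 ± 0.09 and 0.04 ± 0.07. Cxcl10, a chemokine of interferon and NF-kB, measured 20.1, 17.9 and 23.02 CPM and 33.95, 34.99 and 34.05 CPM, and its value of 0.76 ± 0.09 was 0.93 ± 0.09 with the haemoglobin term (adjusted p = 0.0135); it was chosen after its values were seen.

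The core of the response element, GAAA followed by any pair of bases and GAAA again, was searched in the same windows on both strands. It stood in 3.99% of 27025 genes and in 9 of 16 interferon effectors with a window, 4 of the 6 called ones with a window among them. Oas1a and Ifit1 are shown with their matches in capitals, where overlapping matches run on. In Oas1a the matches lie just before the start site, in Ifit1 further upstream on the other strand.
Oas1a, chr5:120907476-120907775, minus strand: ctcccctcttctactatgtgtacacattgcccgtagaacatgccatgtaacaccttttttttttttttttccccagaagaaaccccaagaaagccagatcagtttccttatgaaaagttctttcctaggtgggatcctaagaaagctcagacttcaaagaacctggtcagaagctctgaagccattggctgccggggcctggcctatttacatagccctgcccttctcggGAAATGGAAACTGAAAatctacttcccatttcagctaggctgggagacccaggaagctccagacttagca
Ifit1, chr19:34640639-34640938, plus strand: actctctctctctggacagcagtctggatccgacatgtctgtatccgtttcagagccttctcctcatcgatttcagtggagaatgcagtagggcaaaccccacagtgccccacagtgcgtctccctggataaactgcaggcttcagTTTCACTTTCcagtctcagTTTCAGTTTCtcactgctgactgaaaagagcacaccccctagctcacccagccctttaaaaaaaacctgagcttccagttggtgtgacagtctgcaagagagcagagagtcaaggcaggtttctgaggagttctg

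Red cell precursor and cell division genes lay higher by their medians, but no gene of these lists was called. Red cell precursors of the red pulp divide, make haem and build the membrane skeleton before they lose their nucleus. The medians were 1.01 for 15 genes of haem synthesis and iron uptake, 1.22 for 15 of the membrane, 1.11 for 15 erythroid factors, 0.64 for 24 of DNA replication and 0.85 for 23 of mitosis. At an unadjusted p under 0.05 they held 8, 3, 9, 20 and 21 genes, and DESeq2 called 0, 0, 0, 10 and 3. With the haemoglobin term the same medians were -0.01, -0.12, 0.05, 0.15 and 0.09. A term built from haemoglobin is itself an erythroid measure, so these values describe how closely the lists follow haemoglobin.

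The values by library show the same. Alas2, which starts haem synthesis in erythroid cells, measured 572, 877 and 311 CPM under isotype and 1790.0, 840.2 and 1307 CPM under AC H6. In it AC H6 library 2 lay below isotype library 2, and AC H6 libraries 1 and 3 were highest. Top2a, topoisomerase II of dividing cells, measured 182, 203 and 108 CPM and 385, 233 and 278 CPM, a log2 change of 0.86 ± 0.26 without and 0.26 ± 0.13 with the haemoglobin term. AC H6 library 2 exceeded isotype library 2 in 0 of 15 membrane genes, 4 of 15 haem synthesis genes, 2 of 15 erythroid factors and 12 of 23 mitosis genes, but in 20 of 24 replication genes. Platelet and megakaryocyte genes were called in part: 6 of 14 rose, against 2.06% of all tested genes. AC H6 library 2 was above isotype library 2 in all 14. All AC H6 libraries lay above all isotype libraries in 13 of them (15.9% of all tested genes), so that order is not separate from the rise. Pf4, platelet factor 4, measured 39.3, 34.3 and 30.9 CPM and 65.4, 53.2 and 74.6 CPM (0.89 ± 0.14), and Itga2b, the platelet fibrinogen receptor chain, 73.8, 71.1 and 60.8 CPM and 104, 91.97 and 126 CPM (0.65 ± 0.13). The platelet median was 0.62 without and 0.46 with the haemoglobin term, where no gene of the list was called. Leaving out AC H6 library 2 raised the platelet count to 12, and leaving out any other library brought it to 0.

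**Figure D3:**
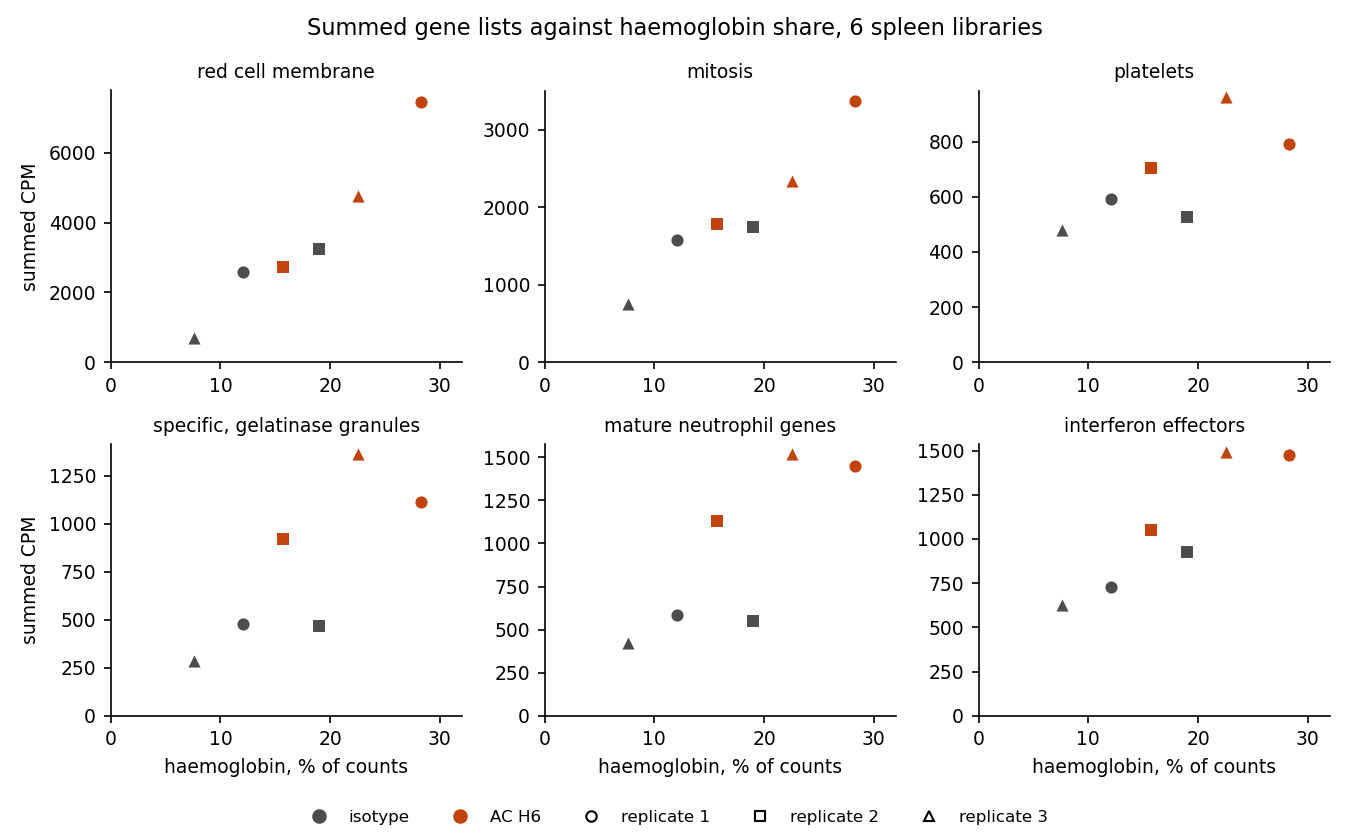
Summed CPM of 6 gene lists (vertical axes, from 0) against the haemoglobin share of each spleen library (horizontal axis, percent of counts). Red cell membrane sums lie lowest in isotype library 3 and highest in AC H6 library 1, the libraries with the least and the most haemoglobin. In every other panel AC H6 library 2 (15.7% haemoglobin) lies above isotype library 2 (19.0%), by little for mitosis (1790 against 1746 CPM).

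**Figure D4:**
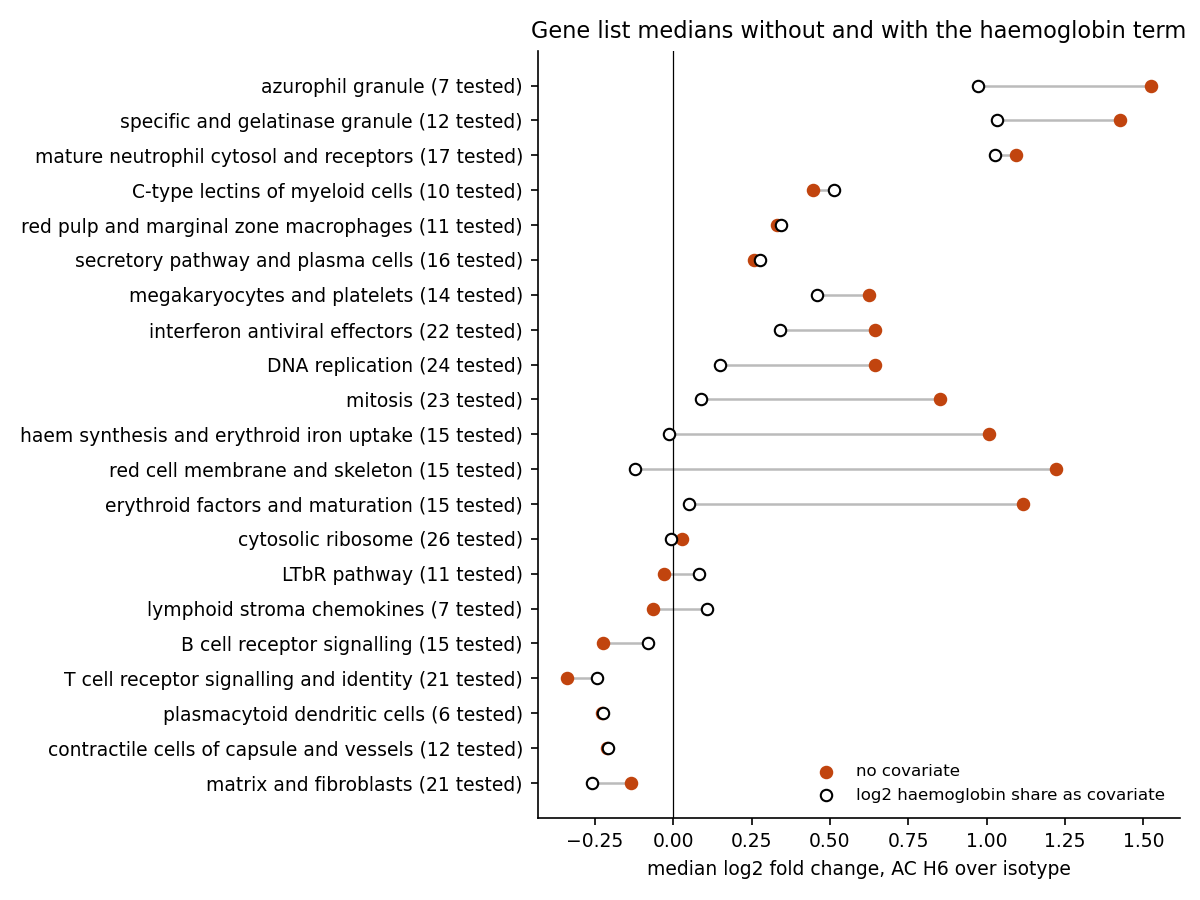
Median log2 fold change of AC H6 over isotype for 21 gene lists, from the fit without covariate (filled) and from the fit with log2 haemoglobin share as covariate (open). Medians of the 3 erythroid lists move from above 1 to between -0.12 and 0.05, and those of the 3 neutrophil lists stay at 0.97 or above.

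Several lymphocyte genes fell by small amounts. Of 21 T cell genes 6 fell and none rose, where 1.92% of all tested genes fell (median -0.34, and -0.24 with the haemoglobin term, with no call). Cd3e, one of the CD3 signalling chains, measured 48.7, 51.7 and 54.8 CPM and 39.4, 38.3 and 37.3 CPM, and Tcf7, a factor of naive and memory T cells, 162, 172 and 181 CPM and 125, 132 and 119 CPM. Values within a group lay close together, the groups did not overlap, and the log2 changes were -0.43 ± 0.06 and -0.46 ± 0.07. Lef1, a partner factor of Tcf7, the costimulator Cd28, the inhibitory receptor Cd5 and the homing receptor Ccr7 were the other calls. Leaving out AC H6 library 2 gave 8 falls in the list, and leaving out any other library 0. None of 15 regulatory and effector T cell genes was called (6 at an unadjusted p under 0.05, DESeq2 1), with Il2ra at -0.48 ± 0.12 and Gata3 at -0.44 ± 0.12. In the follicular B cell list Bach2, a factor that holds back plasma cell fate, fell (log2 -0.51 ± 0.10). The B cell genes Cd79a and Ms4a1 lay at -0.29 ± 0.07 and -0.25 ± 0.08 and did not pass. Tnfrsf13c, the BAFF receptor, and Mef2c, Ebf1 and Foxp1, transcription factors of B cells, were picked after their values were seen, and fell (log2 -0.56 ± 0.10, -0.45 ± 0.08, -0.41 ± 0.07 and -0.38 ± 0.08). These 4 and Bach2 were not called with the haemoglobin term, and Foxp1 lay at -0.23 ± 0.07. Of 15 genes of B cell receptor signalling 1 fell.

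Sphingosine 1-phosphate is the lipid that guides lymphocytes out of tissue and holds marginal zone B cells in place. Its receptor S1pr1 measured 191, 183 and 188 CPM and 155, 162 and 149 CPM, and S1pr3 57.1, 50.5 and 53.8 CPM and 40.98, 44.6 and 43.1 CPM. Both groups were tight and apart, at -0.27 ± 0.06 (adjusted p = 0.0469) and -0.33 ± 0.06 (adjusted p = 0.0421). The other receptors of the family were looked up after these: S1pr4 fell (log2 -0.30 ± 0.06), and S1pr2 and S1pr5 lay at 0.17 ± 0.23 and 0.05 ± 0.12 without passing (adjusted p = 0.655 and 0.8). Cd1d1, which presents lipids, was the remaining call of 8 marginal zone B cell genes, at -0.32 ± 0.06, and Cr2, complement receptor 2, lay at -0.19 ± 0.12 with overlapping groups. With the haemoglobin term none of these was called.

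Among NK cells Klrd1, CD94, measured 29.8, 27.9 and 31.97 CPM and 19.5, 20.5 and 19.9 CPM and fell (log2 -0.58 ± 0.07), a value of -0.47 ± 0.07 with the haemoglobin term (adjusted p = 0.0348). Gzmb, granzyme B, rose from 4.82, 4.27 and 4.79 CPM to 7.27, 6.94 and 7.79 CPM (0.67 ± 0.10), whereas Gzma and Prf1 lay at 0.11 ± 0.09 and 0.10 ± 0.08. In dendritic cells Cd209a, DC-SIGN, of the type 2 cells fell from 18.4, 13.5 and 17.3 CPM to 7.06, 8.87 and 8.21 CPM (-1.02 ± 0.14), and Pacsin1, a gene of plasmacytoid cells, from 22.2, 24.4 and 22.8 CPM to 15.4, 17.3 and 14.8 CPM (-0.55 ± 0.08). No other gene of the 3 dendritic cell lists was called. Flt3l, the growth factor of dendritic cells, lay at 41.5, 37.9 and 42.5 CPM and 30.9, 32.3 and 31.8 CPM (-0.36 ± 0.06, adjusted p = 0.0306), and Kmo and Haao, enzymes that break down kynurenine, fell (log2 -0.58 ± 0.07 and -0.46 ± 0.08). Those 3 genes were chosen after their values were seen, and none was called with the haemoglobin term. Gzmb, Cd209a and Pacsin1 were not called with that term either.

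**Figure D5:**
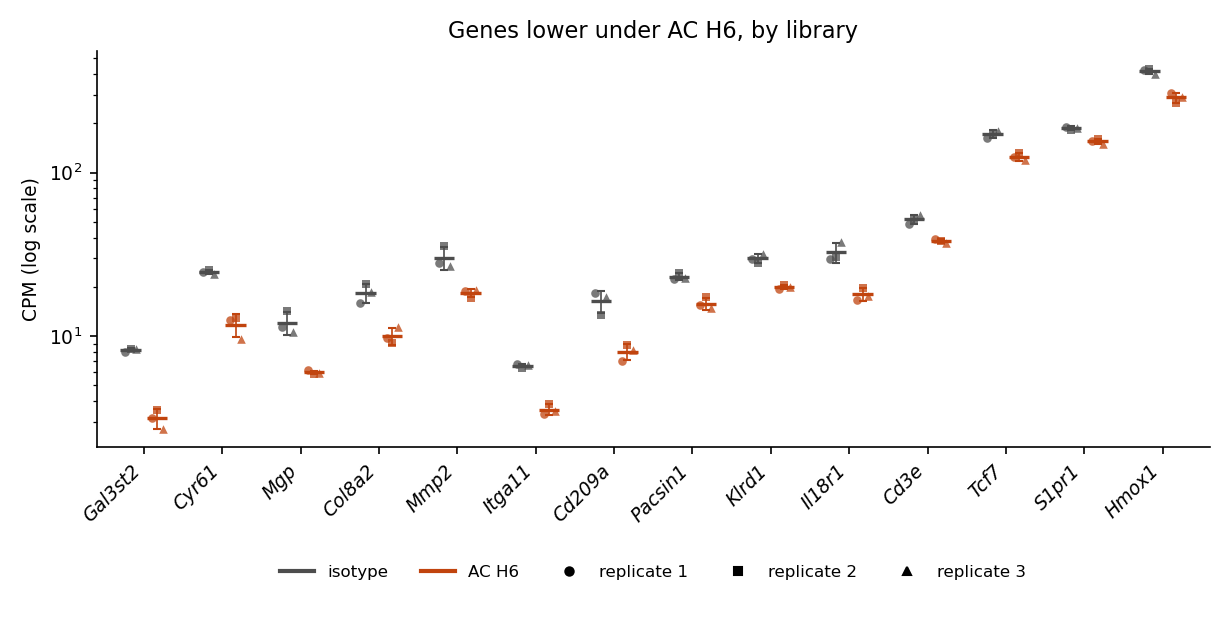
CPM on a log scale of 14 genes called lower under AC H6, in each spleen library; symbols mark the replicate, horizontal bars the group mean and error bars the SD (n = 3 libraries). The AC H6 libraries lie below the isotype libraries for each gene, by the widest ratio for Gal3st2 (log2 -1.38).

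Stromal and matrix genes gave several of the largest falls. Cyr61, a matrix protein driven by YAP and SRF (chromosome 3, 145646976 to 145649981, minus strand), measured 24.7, 25.2 and 23.9 CPM and 12.6, 12.97 and 9.54 CPM, a log2 change of -1.06 ± 0.11 that was -1.06 ± 0.14 with the haemoglobin term. It was the one call of 7 YAP and SRF targets, and Ctgf lay at -0.43 ± 0.16. Mmp2, gelatinase A of fibroblasts, fell from 28.1, 35.7 and 26.98 CPM to 18.97, 17.2 and 19.04 CPM (-0.72 ± 0.11), the one call of 21 matrix genes. Mgp, which keeps matrix from calcifying, and Col8a2, a short-chain collagen, measured 11.4, 14.2 and 10.5 CPM and 15.9, 20.7 and 18.5 CPM under isotype and 6.17, 5.88 and 5.98 CPM and 9.76, 9.06 and 11.4 CPM under AC H6. The collagen integrin Itga11 fell (log2 -0.89 ± 0.11), as did the neurotrophin receptor Ntrk2 (log2 -0.94 ± 0.17) and Angptl7 (log2 -0.95 ± 0.16). Mmp2, Mgp, Col8a2 and Csdc2 (-1.21 ± 0.18) were highest in isotype library 2, as were the uncalled matrix genes Eln (84.1, 142 and 57.7 CPM under isotype) and Col1a1 (109.5, 169 and 95.3 CPM); the part of that library in these falls was not tested. The 6 mesothelium markers summed to 37.2, 41.4 and 38.7 CPM in isotype libraries 1 to 3 and 29.6, 29.5 and 34.4 CPM in AC H6 libraries 1 to 3, with Upk1b called at -1.12 ± 0.23.

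Contractile cells line the capsule, the trabeculae and the arteries. Des, desmin, the intermediate filament of muscle cells, measured 88.4, 88.3 and 85.7 CPM and 126, 129 and 138 CPM and rose by 0.58 ± 0.06 (adjusted p = 0.00973, and 0.57 ± 0.09 with the haemoglobin term). It was the single call of 12 genes of the splenic capsule and vessels, and 9 of the 12 had a negative value, smooth muscle actin Acta2 -0.31 ± 0.08 (adjusted p = 0.0687) and myosin Myh11 -0.35 ± 0.08 (adjusted p = 0.0616) among them. Of 5 skeletal muscle markers tested Tnnt3, a troponin, was the one that fell. It measured 3.63, 3.00 and 3.05 CPM and 1.39, 1.79 and 1.52 CPM, and Myh8, a developmental myosin chosen after its values were seen, 2.38, 2.78 and 3.96 CPM and 0.472, 0.518 and 0.332 CPM (log2 -2.74 ± 0.26, adjusted p = 0.00822). Acta1, the main skeletal muscle actin, lay at 0.990, 0.992 and 0.951 CPM and 0.945, 1.01 and 0.807 CPM. In endothelium Plvap, a diaphragm protein of endothelium, rose by 0.39 ± 0.07, and Selp, P-selectin, which platelets also hold, by 0.69 ± 0.15. Of the 18 endothelium genes tested 2 were called, both higher, against 2.06% of all tested genes. Only 8 of the 18 had a positive value, and the median was -0.04. With the haemoglobin term none of the 18 was called. Madcam1, the addressin of the marginal sinus, lay at -0.29 ± 0.08 and did not pass. In the retinoid list Dhrs9, a retinol dehydrogenase, rose from 0.858, 0.551 and 0.832 CPM to 2.73, 2.35 and 2.23 CPM and the retinol importer Stra6 fell from 2.24, 4.05 and 2.54 CPM to between 0.682 and 1.38 CPM; the other 10 tested were not called.

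Several genes with the largest or the surest changes stand apart from the groups above. Mrgpra2b, an orphan receptor of neutrophils, measured 0.792, 0.992 and 0.555 CPM under isotype and 3.25, 2.59 and 4.18 CPM under AC H6, and Abca13, a lipid transporter, 1.58, 1.65 and 0.872 CPM and 3.73, 4.50 and 6.27 CPM. Both were low in every library, the groups did not overlap, and they rose by 2.04 ± 0.27 and 1.79 ± 0.28. Trem3, an activating receptor of myeloid cells, and Nlrp12, a NOD-like receptor of neutrophils, rose by 1.56 ± 0.22 and 1.54 ± 0.20. Fcgr3, an Fc receptor for IgG, measured 46.7, 46.2 and 44.5 CPM and 65.8, 68.6 and 67.1 CPM (log2 0.55 ± 0.05, adjusted p = 0.00822), and Itgam, the CD11b chain of complement receptor 3, 60.98, 54.1 and 52.6 CPM and 96.2, 102 and 103 CPM (log2 0.85 ± 0.07). Carns1, carnosine synthase, fell from 68.6, 64.7 and 63.2 CPM to 39.2, 42.9 and 38.4 CPM (log2 -0.70 ± 0.06), and Gal3st2, a sulphotransferase for galactose, from 8.05, 8.38 and 8.36 CPM to 3.17, 3.55 and 2.71 CPM (log2 -1.38 ± 0.12, adjusted p = 0.00822). Within each group the values of Carns1 were close together. Among the losses of most CPM, each under 2-fold, were those of the noncoding RNA Neat1 (log2 -0.28 ± 0.06), Arhgef1, a guanine nucleotide exchange factor of lymphocytes (-0.33 ± 0.06), the class II cofactor chain H2-Ob (-0.39 ± 0.07), the tetraspanin Cd37 (-0.38 ± 0.06), Leng8 (-0.38 ± 0.06), and Siglecg, an inhibitory receptor of B cells (-0.44 ± 0.09), beside Hmox1. Lower at a low level were the calcium channel gene Cacna1b (log2 -1.11 ± 0.19), Spo11 (-0.97 ± 0.17), and Cyp2s1, a cytochrome P450 (-0.90 ± 0.15). With the haemoglobin term Fcgr3, Itgam, Trem3, Carns1 and Gal3st2 were called, as was Hmox1.

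The receptor's own pathway was measured at a single time. Of 11 LTbR pathway genes edgeR called none (2 at an unadjusted p under 0.05, DESeq2 1). Nfkb2, the precursor of p52, measured 157, 169 and 174 CPM and 179, 214 and 177 CPM, and Relb, its partner, 70.1, 74.8 and 77.6 CPM and 65.2, 73.4 and 62.97 CPM. The groups overlapped for Relb and came apart by little for Nfkb2, with log2 changes of -0.14 ± 0.08 and 0.19 ± 0.09 (adjusted p = 0.254 and 0.207). Map3k14, which encodes NIK, measured 57.8, 62.3 and 63.2 CPM and 48.2, 54.6 and 50.5 CPM (-0.26 ± 0.07, adjusted p = 0.0731). Of 7 stromal chemokines and survival factors none was called (0 at an unadjusted p under 0.05, DESeq2 0). Cxcl13, which draws B cells into follicles, measured 119, 92.2 and 124 CPM and 94.6, 104 and 111 CPM, and Ccl19, which draws T cells, 102, 103 and 112 CPM and 104, 111 and 109 CPM; both groups overlapped. In the list for antigen processing Ubd, the ubiquitin-like FAT10, was the one call of 11, at 6.67, 5.02 and 6.58 CPM and 2.91, 3.60 and 2.18 CPM (-1.03 ± 0.20).

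Ribosomal protein genes were near 0. The 26 ribosomal protein genes had a median of 0.03 and no call (0 at an unadjusted p under 0.05, DESeq2 0). Of 23 nuclear genes of the respiratory chain 1 was called, Cycs, cytochrome c, at 0.31 ± 0.06. In that list 22 genes had a positive value and 11 an unadjusted p under 0.05, and DESeq2 called 5; the median was 0.18, and 0.09 with the haemoglobin term, where none was called. Immediate early and glucocorticoid response genes, which can follow handling and stress, had no call among 14 and 9 (4 and 3 at an unadjusted p under 0.05, DESeq2 1 and 2). Their medians were -0.17 and 0.09.

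Whether a spleen change differed from that in duodenum was tested by the interaction of tissue and treatment over all 12 libraries. The 2 tissues differ in depth and makeup, and the test asks only whether their log2 changes differ. It passed for 3331 of 16655 genes (20.0%) and for 278 of the 608 genes called in spleen (45.7%). In 241 of the 278 the interaction had the sign of the spleen change, and in 37 the opposite sign. The 608 genes were selected by their change in the same spleen libraries that enter this test. The higher share and the matching sign therefore follow in part from that selection and are no measure of how particular to spleen the changes are. The 6 of smallest p were Ubd, Il4i1, Colq, Stx11, Pde1b and Plxnb1. Ubd fell in spleen and lay at 6.08 ± 0.21 in duodenum, and Il4i1, an amino acid oxidase of antigen-presenting cells, lay at -0.42 ± 0.08 and 3.51 ± 0.11. Colq and Pde1b were likewise lower in spleen (-0.66 ± 0.07 and -0.27 ± 0.06) and higher in duodenum (2.96 ± 0.15 and 1.16 ± 0.07). Stx11 and Plxnb1 rose in spleen by 0.40 ± 0.08 and 0.29 ± 0.05 and lay at 2.78 ± 0.12 and 1.56 ± 0.06 in duodenum. Of the neutrophil lists the interaction passed for 0 of 7 azurophil, 5 of 12 specific and gelatinase and 5 of 17 mature genes, and it passed for Hdc (2.13 ± 0.17, adjusted p = 1.15e-05).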

How the data were processed

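RNA sequencing counts of 6 spleen libraries, 3 with AC H6 and 3 with isotype, were analysed, and the 6 duodenum libraries entered the interaction test only. The deposited values are raw whole-number counts per gene symbol, and per the file headers the column used keeps reads that match several places, so near-identical genes share counts (69 pairs of rows with at least 30 counts in every spleen library differed by at most 0.01 of their value). The submitters' processing notes name bcl2fastq 2.19, Trimmomatic, STAR 2.3, edgeR and the mm10 build. Which counter and which annotation made the counts is, in these sources, not given. The kit does not mark strand, so overlapping antisense genes cannot be told apart.

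Genes were filtered with filterByExpr, scaled by TMM and tested with edgeR 4.0.16 (quasi-likelihood, R 4.3.3), 2 groups and no covariate, at a Benjamini-Hochberg adjusted p under 0.05; errors are log2 changes ± SE, the SE taken from the F statistic. Total counts ran from 13874091 to 45847467. On simulated data for this comparison (15188 genes), the test recovered 36 of 67 genes at 1.5-fold, 58 of 67 at 2-fold and 66 of 66 at 4-fold, and 17 of 177 calls were false (9.60%). The simulated counts were drawn gene by gene and held no haemoglobin difference between libraries, so these rates need not hold for the real libraries. DESeq2 1.42.0, limma-voom 3.58.1, other filters and scaling, a fit of all 12 libraries, a haemoglobin term, a block on the replicate number and fits without single libraries were alternatives. Samples were grouped by their tissue and treatment labels. Positions are those of mm10, and promoters and microRNAs come from RefSeq (GRCm38.p6).

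Named genes are, of those called with non-overlapping groups at a mean log2 CPM of 1 or more (no predicted models or receptor segments), the 15 that rose and the 15 that fell furthest, the 8 largest gains and losses of CPM, the 10 smallest p, up to 6 members of smallest p per list and members whose role is told, and the 6 smallest interaction p. The gene lists and these choices were made with earlier results of these data known, and other genes are said to be chosen after their values were seen. A few genes that these rules name are not reported here.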

Additional observations from a re-analysis of the deposited data

Results flagged for a closer look

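Among genes named above and called in spleen, the following had a treatment change that differed between spleen and duodenum in edgeR's interaction test (adjusted p under 0.05). The value after each gene is the spleen log2 change minus the duodenum log2 change.

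Higher in spleen under AC H6 with the larger value in spleen were Itgam (0.39), Canx (0.40), Ctsb (0.41), Taldo1 (0.48), Lta4h (0.49), Gzmb (0.50), P4hb (0.54), Nr1h3 (0.54), G6pdx (0.55), Cycs (0.55), Tkt (0.59), Pgd (0.70), Gsr (0.78), Itga2b (0.83), Dgat2 (0.91), Ltf (1.13), Alox5 (1.24), Il1r2 (1.30), Cd209b (1.42), Nlrp12 (1.43), Ltb4r1 (1.52), Vcan (1.52), Ngp (1.57), Slfn4 (1.79), Cd177 (1.80), Mmp8 (2.07) and Hdc (2.13). Higher in spleen with the larger value in duodenum were Stx11 (-2.38), Cxcl10 (-1.87), C3 (-1.81), Plxnb1 (-1.27), Cxcr2 (-1.15), Oas2 (-0.79), Pglyrp1 (-0.58), Ifitm3 (-0.58), C1qc (-0.51), C1qa (-0.45), C1qb (-0.43) and Csf1r (-0.29). Lower in spleen with a higher value in duodenum were Stra6 (-8.22), Ubd (-7.10), Il4i1 (-3.93), Colq (-3.62), Flt3l (-1.88), Spo11 (-1.76), Tnfrsf13c (-1.67), Il18r1 (-1.63), Cacna1b (-1.61), Pde1b (-1.44), S1pr3 (-1.42), Pla2g2d (-1.38), Kmo (-1.24), Ccr7 (-1.05), Cd5 (-1.05), Gal3st2 (-1.02), Cd37 (-0.95), Cd1d1 (-0.94), Csdc2 (-0.93), S1pr4 (-0.92), Mylip (-0.92), Carns1 (-0.88), S1pr1 (-0.82), Klrd1 (-0.81), Siglecg (-0.81), Cyr61 (-0.79), Cd3e (-0.74), Mmp2 (-0.62), Tcf7 (-0.56), Mef2c (-0.47) and Arhgef1 (-0.36). A higher value in duodenum is not always a rise there. Gal3st2, Csdc2, Cyr61 and Mmp2 lay below 0 in duodenum too, at -0.36 ± 0.08, -0.28 ± 0.23, -0.27 ± 0.15 and -0.11 ± 0.10. Of these, Gal3st2 alone was called lower in duodenum (edgeR adjusted p = 0.00388). The tissues differ in cell makeup, whose part in these differences was not tested.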

How the results depend on the processing

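The count of 608 called genes was 1356 with DESeq2, 1390 when all 12 libraries shared an estimate of spread and 97 with the haemoglobin term, and it lay between 14 and 1132 when single libraries were left out. Other scaling, other filters, limma-voom, and leaving out the haemoglobin rows gave between 504 and 648. With the replicate number as a block 1 gene was called. The deviations of same-numbered libraries correlated at 0.26, -0.13 and -0.03, and those of other pairs at between -0.41 and 0.41. The labels do not say what the numbers mark. With 3 libraries a group these correlations cannot decide whether the numbers pair the samples. The block together with the haemoglobin term, on 1 residual degree of freedom, called 820. Of 197 called genes in the named groups, 196 were called with other size factors and 61 with the haemoglobin term, and none changed direction under any alternative. Of 243 named genes that were not called, 20 changed sign with the haemoglobin term and stayed uncalled, as did 21 with that term and the block, and 10 without isotype library 3. One more, Ddit4, a stress gene, changed sign and was then called: it lay at -0.30 and was 0.37 under the haemoglobin term with the block (edgeR adjusted p = 0.0177); the cause was not tested. The interaction count of 278 stayed between 239 and 285. The haemoglobin difference of 9.31 percentage points lay between 6.25 and 12.5 without single libraries (exact permutation p from 0.2 to 0.4). The causes of these shifts were not tested. The stefin list under the stricter filter, and the haemoglobin list without its rows, gave no median.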
